A study of Mus musculus with 12 samples.

Results

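Astrocytes, the star-shaped glia of the brain and cerebellum, change their transcription after injury, inflammation or the growth of a tumour beside them. The 10 genes described here are 8 genes widely used to read that state (Lcn2, Serpina3n, Gfap, Steap4, S1pr3, Aspg, Cd44 and Ggta1) and 2 genes of astrocytes at rest (Aqp4 and Aldh1l1). They were taken by symbol from a table of 15672 genes, and all 10 were among the 14147 genes that passed the filter on low values. They had been picked with the difference between YSGr and SG tumours in view, so that difference is a description here and carries no test. Tests were kept for the comparisons between the sexes, which the choice did not use.

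Bulk RNA-seq was measured in mouse tumour tissue labelled MB (medulloblastoma, a tumour of cerebellar granule neuron progenitors), taken at end point, with no age given. The YSGr mice carried fYap1, fSMO-M2 and hGFAPcre (3 female and 3 male libraries) and the SG mice carried fSMO-M2 and hGFAPcre (3 female and 3 male libraries). Both genotypes therefore had the activated Smoothened allele SMO-M2 and the Cre transgene, and YSGr mice had floxed Yap1 as well. YSGr stands for a rescued group, and the labels do not define the rescue. Cre was driven by the human GFAP promoter, which is active in progenitors of granule neurons and of astrocytes, so its activity is not restricted to the lineage of the tumour cells.

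Reactive astrocytes respond to signals such as interleukin 1, tumour necrosis factor, complement C1q and cytokines of the interleukin 6 family, the last of which act through the transcription factor STAT3. Genes induced after most kinds of injury are called pan-reactive, while sets found after inflammation and after ischaemia in mice are called A1 and A2. The mature astrocyte genes used here for comparison are 20 others, such as the glutamate transporter genes Slc1a2 and Slc1a3.

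Levels are in CPM, which are reads scaled to a common library size, or on the log2 CPM scale of the authors' deposited table, and the libraries held 8854767 to 9478651 estimated reads. Yap1 had 9, 12 and 7 reads in YSGr females and 33, 29 and 14 in YSGr males, against 174 to 253 per SG library. All YSGr females were thus below all YSGr males (means 0.99 and 2.61 CPM), as were 9.35% of all genes. The part of this Yap1 difference in the sex differences below was not tested. All 20 mature astrocyte genes passed the filter, with summed levels of 4010 to 8890 CPM in YSGr and 6180 to 7760 CPM in SG, so the tumour tissue held astrocyte transcripts in every library. No 2 of the 12 libraries were identical (Pearson correlations across genes 0.919 to 0.991). SG male 2, YSGr female 11 and YSGr male 8 fitted their groups least well, with limma weights of 0.10, 0.27 and 0.28. Whether each library is a separate animal is not given, so the p-values below rest on the spread among libraries, part of which may be technical.

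Lcn2 and Steap4 were the 2 members whose levels did not overlap between the genotypes, with every YSGr library higher (2.93% of all genes did the same). Lcn2 encodes lipocalin 2, a secreted protein that binds iron-carrying siderophores and is released by reactive astrocytes and neutrophils, and Steap4 encodes a membrane metalloreductase that reduces iron and copper. Lcn2 (chromosome 2, 32384633 to 32388252, minus strand, mm10) had 759, 362 and 250 reads in YSGr females and 665, 712 and 500 in YSGr males, against 10, 6 and 16 in SG females and 12, 16 and 0 in SG males. The lowest YSGr library was above the highest SG library, and the 0 reads of SG male 3 allow up to 0.316 CPM (3 reads, counting error only). Mean Lcn2 was 56.5 ± 21.0 CPM in YSGr and 1.07 ± 0.679 CPM in SG (SD, n = 6 each), a ratio of 52.7. On the log2 scale, which includes a prior count and understates changes of low genes, the difference was 5.67 (SE 0.48).

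Steap4 (chromosome 5, 7960457 to 7982213, plus strand) had 61, 62 and 38 reads in YSGr females and 124, 102 and 138 in YSGr males, against 25, 20 and 30 in SG females and 11, 3 and 7 in SG males. The 4 groups did not overlap one another: YSGr males were highest, then YSGr females, SG females and SG males. The share of all genes with 4 separate groups was not computed. Means were 5.69 ± 1.28 CPM in YSGr females and 2.67 ± 0.561 CPM in SG females, a ratio of 2.13. In males they were 12.5 ± 1.72 CPM in YSGr and 0.734 ± 0.400 CPM in SG, a ratio of 17.1 (SD, n = 3 each). The averaged log2 difference was 2.43 (SE 0.23). Levels from bulk tissue cannot tell a change in the number of astrocytes from a change in the RNA that each holds, and this applies to every member.

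The windows before the RefSeq start of these 2 genes are shown because their transcripts were the ones that separated the genotypes in every library. They come from RefSeq promoters on GRCm38.p6, 5′ to 3′ on the gene's strand, ending before the first base annotated as untranslated region. The Lcn2 window is chr2:32387798-32387989 (minus strand) and the Steap4 window is chr5:7960222-7960456 (plus strand). For Lcn2 the RefSeq start is 32387739, inside the gene as annotated by GENCODE, whose minus-strand gene begins at 32388252: all 192 printed bases lie within that gene and 139 of them in its annotated exons. The Steap4 stretch lies outside its GENCODE gene. Capitals mark matches to STAT (TTCNNNGAA), NF-kB or C/EBP (TTGCNNAA) motifs, searched on both strands with AP-1 (TGANTCA).
Lcn2: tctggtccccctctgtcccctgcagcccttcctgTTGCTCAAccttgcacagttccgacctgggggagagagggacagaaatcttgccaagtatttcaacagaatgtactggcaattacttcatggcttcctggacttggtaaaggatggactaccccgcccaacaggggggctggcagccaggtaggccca
Steap4: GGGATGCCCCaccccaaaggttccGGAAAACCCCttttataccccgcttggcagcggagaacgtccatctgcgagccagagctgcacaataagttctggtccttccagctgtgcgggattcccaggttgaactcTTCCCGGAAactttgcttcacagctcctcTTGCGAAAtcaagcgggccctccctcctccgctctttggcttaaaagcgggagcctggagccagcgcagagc
In the Lcn2 window the match is a C/EBP motif 216 to 209 bases before the RefSeq start. In the Steap4 window the first and second are NF-kB matches on the minus strand, followed by a palindromic STAT match 116 to 108 bases before the start and a C/EBP match at 87 to 80. No motif matches overlapped. Of 32851 promoter windows of 250 bases in the same table, 7.02% held the STAT motif, 3.90% NF-kB, 6.75% AP-1 and 9.56% C/EBP. Windows were searched for 9 of the 10 members, Aqp4 not among them. Among the other 7, Ggta1 and Aldh1l1 each had 1 C/EBP match and the rest had none of these letters. A match describes sequence and shows no binding.

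**Figure D1:**
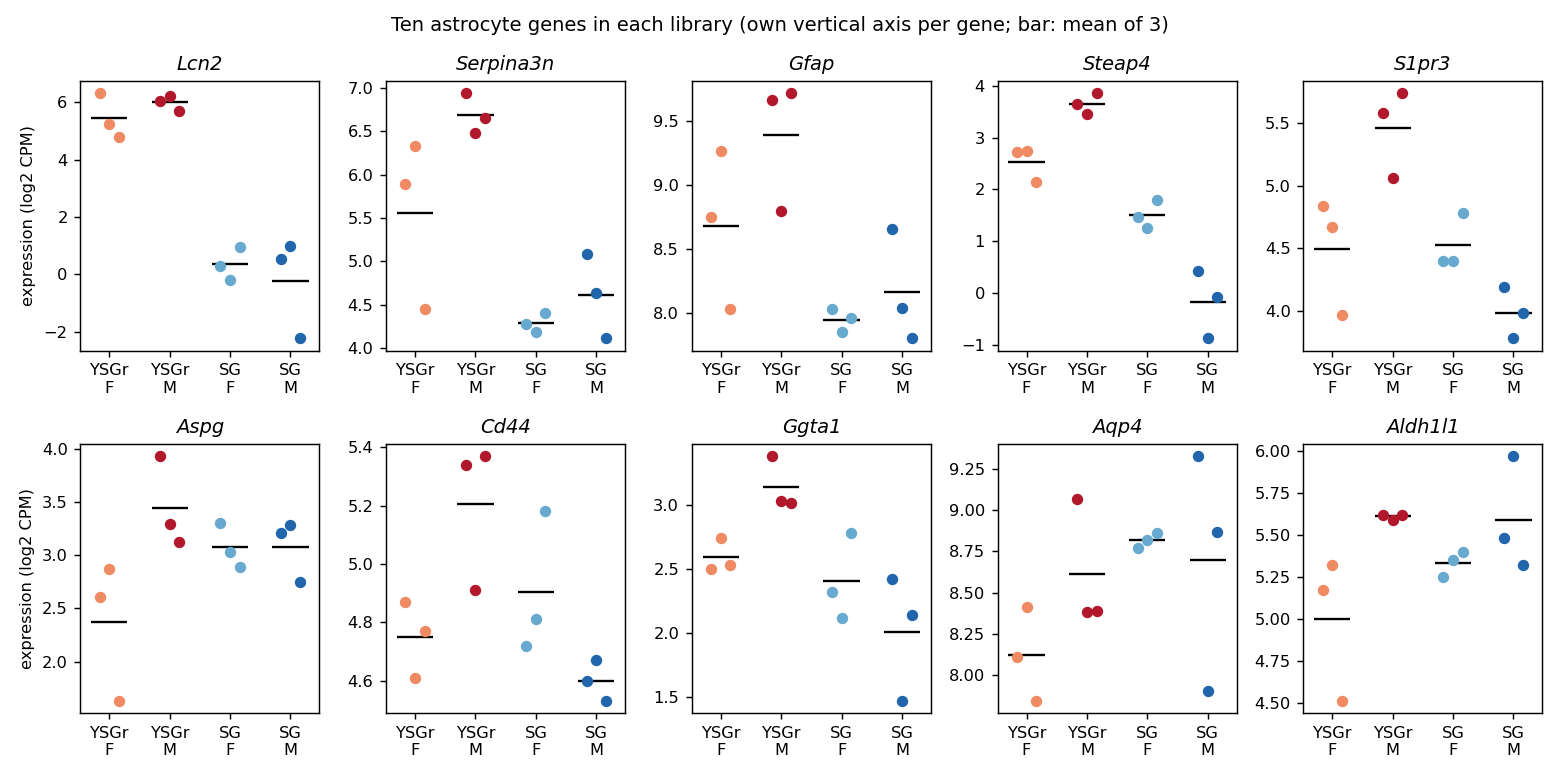
Expression of each member in every library (log2 CPM, vertical axis scaled per gene) for YSGr females, YSGr males, SG females and SG males; each point is 1 library and each bar the mean of 3. Lcn2 and Steap4 are above all SG libraries in all 6 YSGr libraries, and YSGr female 12, the right-hand YSGr female point, is the lowest YSGr library for 8 of 10 genes.

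Serpina3n and Gfap were higher in most YSGr libraries, with YSGr female 12 within the SG range for both. Serpina3n (chromosome 12, 104406729 to 104414329) encodes a secreted serine protease inhibitor. It had 565, 770 and 195 reads in YSGr females and 1221, 842 and 971 in YSGr males, against 190, 165 and 191 in SG females and 327, 223 and 162 in SG males. In CPM, 5 of 6 YSGr libraries exceeded the highest SG library, SG male 1. Means were 78.9 ± 35 CPM in YSGr and 22.3 ± 6.19 CPM in SG (SD, n = 6 each), a log2 difference of 1.67 (SE 0.27). Serpina3n lies in a cluster of near-identical paralogs whose reads cannot always be assigned, so its level is uncertain to that extent. The other measured paralogs were almost silent: Serpina3c, Serpina3f, Serpina3g, Serpina3i and Serpina3m had 2, 12, 36, 12 and 0 reads summed over YSGr and 0, 8, 4, 2 and 0 over SG, and none passed the filter.

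Gfap (chromosome 11, 102887336 to 102900912) encodes the intermediate filament protein of astrocytes, and its rise is the classical sign of reactivity. It had 430, 618 and 260 CPM in YSGr females and 816, 446 and 842 in YSGr males, against 262, 230 and 249 in SG females and 403, 264 and 222 in SG males. The YSGr and SG males did not overlap, while YSGr female 12 lay inside the range of SG females. Means were 569 ± 231 CPM in YSGr and 272 ± 66.6 CPM in SG (SD, n = 6 each), a ratio of 2.09 and a log2 difference of 0.98 (SE 0.22).

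For S1pr3, Cd44 and Ggta1 the log2 differences between the genotypes were -0.03, -0.15 and 0.18 in females and 1.48, 0.61 and 1.13 in males. S1pr3 (chromosome 13, 51408639 to 51422797) encodes a receptor for the signalling lipid sphingosine-1-phosphate. It had 28.4, 25.3 and 15.4 CPM in YSGr females, against 20.9, 20.8 and 27.2 in SG females, and 47.8, 33.2 and 53.3 in YSGr males, against 18, 13.5 and 15.6 in SG males. The female means of 23.1 CPM in YSGr and 23 CPM in SG differed by less than their spread, and males separated with a ratio of 2.85.

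Cd44, on chromosome 2, encodes a receptor for the matrix polymer hyaluronan and is also made by other cells. It ranged from 24.2 to 29.1 CPM in YSGr females, against 26.1 to 36.1 in SG females, and from 29.9 to 41.0 in YSGr males, against 22.8 to 25.3 in SG males. Ggta1, on chromosome 2, encodes the enzyme that adds the alpha-galactose sugar epitope and belongs to the A1 set. It ranged from 5.46 to 6.45 CPM in YSGr females, against 4.15 to 6.67 in SG females, and from 7.86 to 10.2 in YSGr males, against 2.55 to 5.14 in SG males. Both separated the genotypes in males and overlapped in females.

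Aspg, on chromosome 12, encodes an asparaginase and is the pan-reactive member whose averaged difference was below 0. It ranged from 2.89 to 7.08 CPM in YSGr females, against 7.22 to 9.64 in SG females, and from 8.48 to 15.1 in YSGr males, against 6.52 to 9.54 in SG males. All 3 YSGr females were below all 3 SG females, males overlapped, and the averaged log2 difference was -0.17 (SE 0.23).

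The 2 genes of astrocytes at rest were not higher in YSGr. Aqp4 encodes the water channel of astrocyte endfeet, and it had 277, 340 and 229 CPM in YSGr females and 537, 333 and 334 in YSGr males, against 437, 451 and 466 in SG females and 644, 238 and 468 in SG males. SG males spanned nearly the range of all 12 libraries, and all YSGr females were below all SG females. The averaged log2 difference was -0.39 (SE 0.21). Aldh1l1 (chromosome 6, 90486427 to 90600203) encodes a folate enzyme used to label astrocytes throughout the brain. It ranged from 22.5 to 39.8 CPM in YSGr females and from 48.0 to 49.0 in YSGr males, against 37.7 to 42.1 in SG females and 39.7 to 62.5 in SG males, and the genotypes overlapped in both sexes. Aldh1l1 and S1pr3 share 499 and 45 exon bases with annotated genes on the opposite strand, and Aldh1l1 another 105 with one on its own strand. The use of strand in counting is not given in the sources used here, so those reads cannot be assigned with certainty.

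In the averaged YSGr against SG contrast 6 of the 10 members had a limma adjusted p under 0.05, all higher (Lcn2, Steap4, Serpina3n, Gfap, S1pr3 and Ggta1), where 11.4% of all genes did (6.16% higher and 5.27% lower). The members were picked on this contrast, so the count supports nothing. Their median log2 difference was 0.69, against -0.00 over all genes. Every YSGr library was above every SG library for 2 members, against 2.93% of genes. Males alone separated upwards for 7 members (Lcn2, Serpina3n, Gfap, Steap4, S1pr3, Cd44 and Ggta1), against 16.3% of genes. Females alone separated upwards for Lcn2, Serpina3n and Steap4, against 14% of genes, and downwards for Aspg and Aqp4, against 13.9%.

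**Figure D2:**
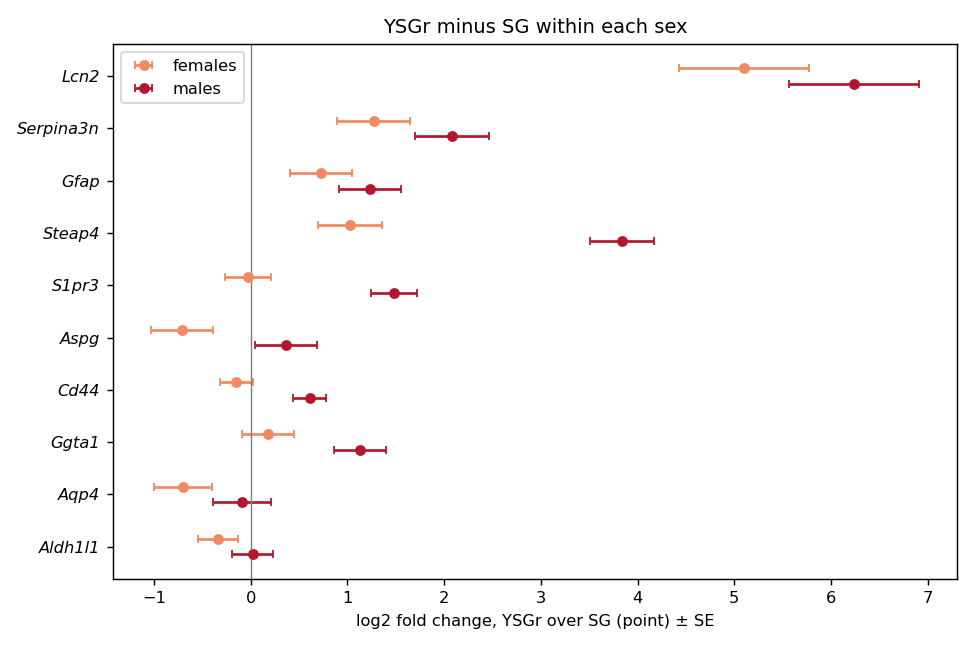
Log2 fold change of YSGr over SG for each member, in females (upper point) and males (lower point), with the standard error as bars. The female point lies left of the male point for all 10 genes, most widely for Steap4 at 1.03 in females and 3.84 in males.

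The order of the members differed between the genotypes. Per kilobase of exon, mean levels in YSGr ran from Gfap (135 CPM per kb) through Aqp4 (54.8), Serpina3n (38.2), Lcn2 (21.5), Aldh1l1 (9.00), S1pr3 (7.60), Cd44 (4.71), Steap4 (2.88) and Aspg (2.32) to Ggta1 (1.54). In SG they ran from Aqp4 (72.3 CPM per kb) and Gfap (64.4) through Serpina3n (10.8), Aldh1l1 (9.87), S1pr3 (4.34), Cd44 (3.99), Aspg (2.36), Ggta1 (0.973) and Steap4 (0.539) to Lcn2 (0.408). Lcn2 was the lowest of the 10 in SG and the fourth in YSGr. Every pair of neighbours in the YSGr order overlapped in range, Lcn2 and Aldh1l1 (10.6 to 30.4 and 4.99 to 10.8 CPM per kb) only slightly. In the SG order Gfap and Serpina3n, Aldh1l1 and S1pr3, Cd44 and Aspg, and Aspg and Ggta1 were separate, and the other neighbours overlapped, Aqp4 and Gfap among them (38.2 to 103 and 52.6 to 95.6 CPM per kb).

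The question put to the sexes was whether the difference between YSGr and SG was the same in females and males. The female effect was the smaller or more negative for all 10 members, where 49.6% of all genes had that sign, and the median difference of the effects was -0.88 (log2), against 0.01 over all genes. None of the 10 passed the limma threshold (adjusted p 0.26 to 0.61), where 0.00707% of genes did. At an unadjusted p under 0.05 there were 5 members (Steap4, S1pr3, Cd44, Ggta1 and Aspg), against 11.6% of genes. The members share libraries and tissue and are not independent of one another.

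Steap4 had the largest difference, with log2 effects of 1.03 in females and 3.84 in males, a difference of -2.81 (SE 0.47, adjusted p = 0.26). Without YSGr female 11 it was -2.91 and passed (adjusted p = 0.034). S1pr3 followed, with -0.03 in females and 1.48 in males, a difference of -1.51 (SE 0.35, adjusted p = 0.43). Lcn2 was higher by 5.10 in females and 6.24 in males, a difference of -1.14 (SE 0.95, adjusted p = 0.59), which shrank to -0.14 without SG male 3. For Gfap the effects were 0.73 and 1.23, a difference of -0.50 (SE 0.45, adjusted p = 0.61).

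Within YSGr all 10 members were lower in females, where 47.1% of genes had that sign, with log2 differences of -1.13 to -0.46 and a median of -0.66, against 0.02 over all genes. The 7 genes Serpina3n, Steap4, S1pr3, Aspg, Cd44, Ggta1 and Aldh1l1 were lower in all YSGr females than in all YSGr males, against 9.35% of genes. None passed the limma threshold (adjusted p 0.14 to 0.69), where 0.0778% of genes did. At an unadjusted p under 0.05 there were 7 members, against 18.1% of genes. These were the genes just named with Gfap in place of Ggta1. The 4 largest were -1.13 for Serpina3n (SE 0.38, adjusted p = 0.17), -1.12 for Steap4 (SE 0.33, adjusted p = 0.15), -1.08 for Aspg (SE 0.32, adjusted p = 0.15) and -0.97 for S1pr3 (SE 0.24, adjusted p = 0.14).

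These calls turned on YSGr female 11. Without it Serpina3n (-1.52, adjusted p = 0.028), Aspg (-1.33, adjusted p = 0.033) and S1pr3 (-1.06, adjusted p = 0.039) passed, and the count over all genes was 1029 in place of 11. YSGr female 12 moved the sizes: without it the difference was -0.58 for Serpina3n, -0.39 for Gfap and -0.22 for Lcn2, and still negative for all 10. Within YSGr, male 7 was among the 3 highest libraries for 10 of 10 members and male 9 for 9.

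Within SG the members went in both directions, with 6 higher and 4 lower in females and a median of 0.21, against -0.01 over all genes. Steap4, S1pr3 and Cd44 were higher in all SG females than in all SG males, against 5.92% of genes. None passed the limma threshold (adjusted p 0.39 to 1), where 0.0353% of genes did, and Steap4 and S1pr3 had an unadjusted p under 0.05, against 1.83% of genes. For Steap4 the SG difference of 1.68 (SE 0.33, adjusted p = 0.39) was opposite in sign to the YSGr difference of -1.12, and it rested on 20 to 30 reads per SG female and 3 to 11 per SG male.

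**Figure D3:**
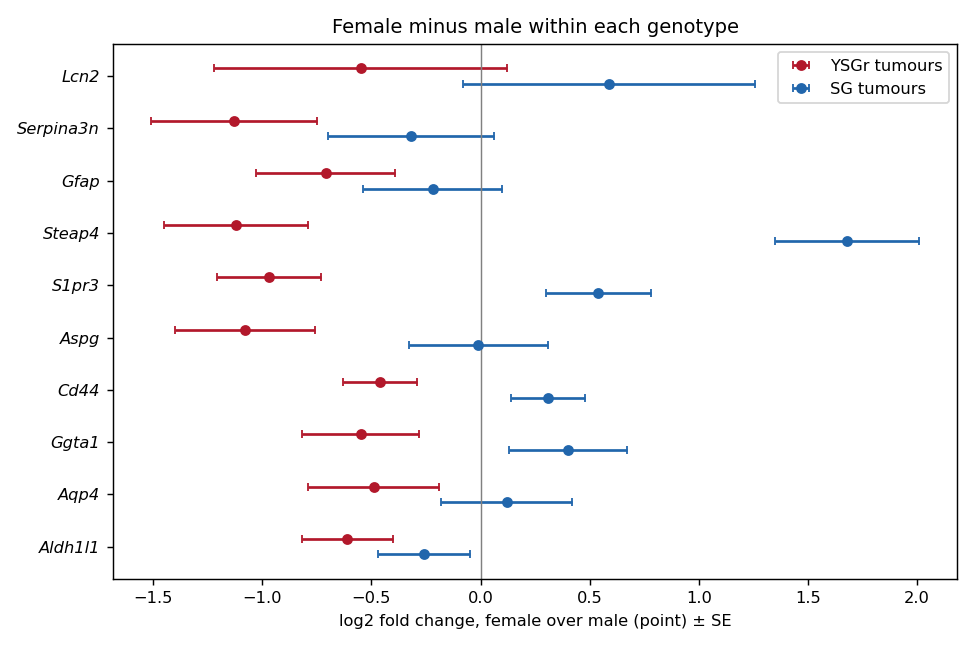
Log2 fold change of female over male for each member, in YSGr (upper point) and SG (lower point), with the standard error as bars. All YSGr points are below 0, and the SG points lie on both sides, from -0.32 for Serpina3n to 1.68 for Steap4.

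The other mature astrocyte genes were also lower in YSGr females by their means, though 0 of 20 passed the limma threshold for either comparison below. All 20 were lower in YSGr females than in YSGr males (47.1% of all genes were), with a median log2 difference of -0.85. For 19 of 20 the female YSGr against SG effect was below the male one (49.6% of all genes), with a median difference of -0.66. Their summed level was 5110, 7890 and 4010 CPM in YSGr females and 8840, 8890 and 8090 in YSGr males, against 6180, 6330 and 6220 in SG females and 7760, 7530 and 6510 in SG males. YSGr female 12, lowest for 8 of the 10 members, was also lowest here. Oligodendrocyte lineage genes had a median of -1.78 for YSGr females against YSGr males, and granule neuron progenitor genes, which mark the tumour cells, had 0.33. Between the genotypes 4 of 10 progenitor genes fell and 0 rose by limma (median -0.50), among them Gli1, a target of hedgehog signalling, at -0.82 and the cyclin gene Ccnd1 at -0.60. Of the 10, 3 were above 0 and not past the threshold: Zic2 at 0.35, Sfrp1 at 0.29 and Zic1 at 0.19. With library weights 6 fell and 2 rose, and 1 rose without YSGr male 8 or YSGr female 12. Of 10 endothelial markers 5 fell and 0 rose (median -0.55), with 3 falls without YSGr male 7, YSGr male 9, YSGr female 10, YSGr female 11, SG male 3 or any 1 SG female, and 8 with library weights. The part of tissue composition in the members' differences was not tested.

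Each member was therefore also taken relative to the mean log2 CPM of those 20 genes in the same library, a scale chosen after the data were seen and given without a test. On it Lcn2, Serpina3n and Steap4 were above every SG library in 6 of 6 YSGr libraries, and Gfap in 5 of 6. The share of all genes that did the same on this scale was not computed. The effects in females and males were then 1.21 and 0.97 for Gfap, 1.74 and 1.82 for Serpina3n and 5.58 and 5.98 for Lcn2. The median difference of the effects over the 10 members was -0.14, with 3 positive and 7 negative, where it was -0.88 in CPM of the whole library. Steap4 kept the widest difference of the effects at -2.07, and S1pr3 was next at -0.77, with 0.44 in females and 1.22 in males. For YSGr females against YSGr males the median was 0.22, with 6 members positive, Gfap at 0.17 among them, and 4 negative. The scale takes the same number off every gene of a library, so all genes shift alike. Medians and signs over all genes were not computed on it, so these values do not place the members against other genes. Whether the sex difference of the members reflects astrocyte content was not tested.

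Lcn2 is also a product of neutrophils, and neutrophil markers were higher in YSGr. Of 7 tested markers 7 rose (4 without YSGr male 9, SG female 5 or SG female 6) with a median of 2.22. All of them but Csf3r were below 0 log2 CPM in every SG library. Those genes passed the filter through YSGr libraries alone and could hardly be called lower, so the count and median follow in part from the filter. With a stricter filter (log2 CPM above 1 in at least 6 libraries) 1 marker was tested, and it rose by 0.56. The summed level of all 9 measured markers, Ltf and Retnlg included, was 16.8 to 44.6 CPM in YSGr and 10.8 to 14.9 CPM in SG. S100a9, the most changed, had 3, 26 and 9 reads in YSGr females and 35, 74 and 27 in YSGr males, against 1, 0 and 1 in SG females and 1, 1 and 0 in SG males. The granule gene Ltf had 1, 0 and 0 reads in YSGr females and 2, 35 and 0 in YSGr males, against 0 in every SG library. Csf3r, which other myeloid cells also make, held most of the SG sum with 90 to 134 reads per library. YSGr female 10, the library with the most Lcn2 (759 reads), had 3 reads of S100a8, 3 of S100a9 and 1 of Ltf, while YSGr male 8, with 712 Lcn2 reads, had 40, 74 and 35. Other markers were closer in these 2 libraries: Mmp9, Csf3r and Cxcr2 had 40, 149 and 8 reads in YSGr female 10 and 53, 175 and 14 in YSGr male 8. In SG libraries Mmp9 had 0 to 7 reads and Cxcr2 0 to 2. Ngp, Camp, Mpo, Elane and Ly6g were looked up by symbol and are absent from the 15672 genes, so they have no values here. The part of neutrophils in the Lcn2 level was not tested.

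**Figure D4:**
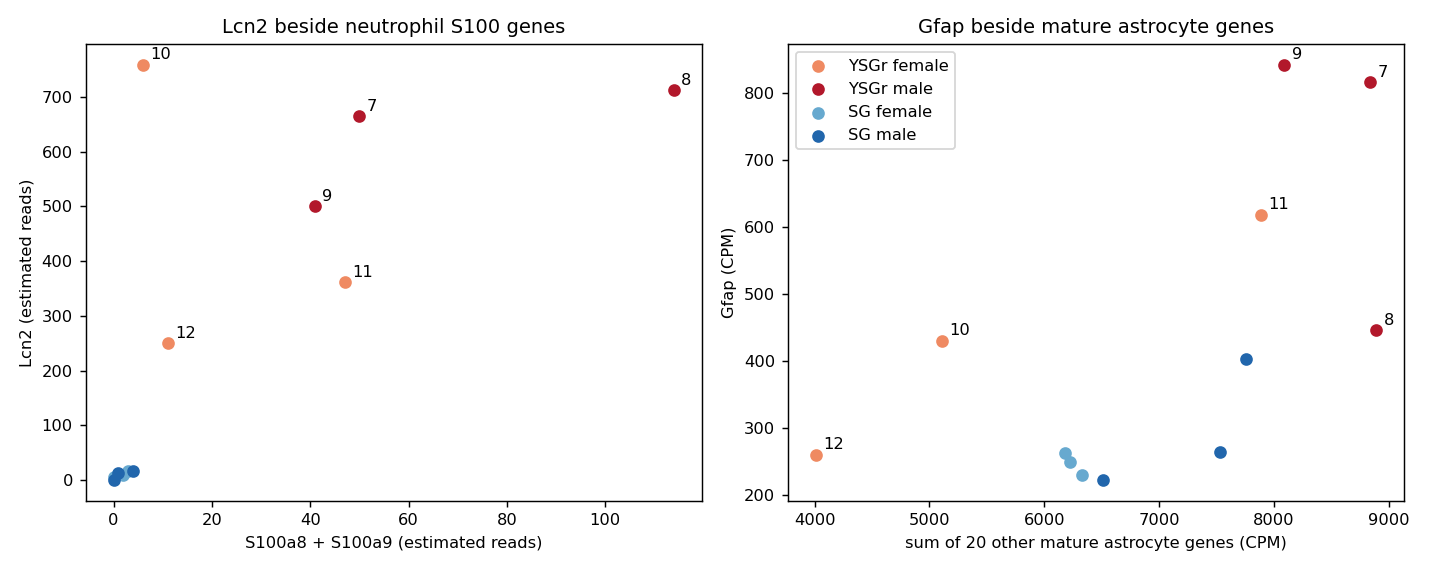
Left, estimated reads of Lcn2 against the summed reads of the neutrophil genes S100a8 and S100a9; right, Gfap (CPM) against the summed CPM of 20 other mature astrocyte genes; each point is 1 library, with YSGr libraries numbered. YSGr female 10 has the most Lcn2, 759 reads, with few S100 reads, and YSGr female 12 is lowest in YSGr for both Gfap (260 CPM) and the astrocyte sum (4010 CPM).

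Macrophage and monocyte markers also rose, in 7 of 10 tested cases with a median of 1.45. The summed level of all 12 measured markers was 378 to 753 CPM in YSGr and 146 to 199 CPM in SG. The count of rises was 5 to 7 without 1 library and 5 with the additive model. Ccr2, Arg1 and Chil3 were below 0 log2 CPM in every SG library. They passed the filter through YSGr libraries alone and could hardly be called lower. With the stricter filter 4 of 6 tested markers rose. Of 10 microglia markers 0 rose and 1, Gpr34, fell by limma (summed level of the 10 markers 352 to 461 CPM in YSGr and 365 to 412 CPM in SG). With library weights 4 rose and 3 fell, 1 rose without YSGr male 8 and 2 without SG male 2, and 2 fell without YSGr male 9, YSGr female 12 or SG male 2. Cd44 and Ggta1 can be made by such cells, and that share was not tested. Oligodendrocyte markers summed to 1150 to 2180 CPM in YSGr females and 2370 to 9710 CPM in YSGr males, against 1770 to 2400 CPM in SG females and 1870 to 2830 CPM in SG males, with the 9710 in YSGr male 8.

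The following lists of other astrocyte genes leave out the 10 members, and their calls are over all genes tested, of which 6.16% rose and 5.27% fell. These lists and the cell type marker lists above were chosen with earlier results of these data known. Their counts and adjusted p-values are therefore a description and give no independent support. Of the 6 other pan-reactive genes 3 rose and 0 fell, with a median of 1.55. Cxcl10, a chemokine induced by interferon, rose by 3.37 (SE 0.35, adjusted p = 0.00012), Cp, the copper ferroxidase ceruloplasmin, by 2.45 (SE 0.14, adjusted p = 1.5e-06) and Timp1, an inhibitor of metalloproteinases, by 2.43 (SE 0.28, adjusted p = 0.00024). The chaperone gene Hspb1 was at 0.67 (adjusted p = 0.20), the oncostatin M receptor gene Osmr at 0.25 (adjusted p = 0.36) and Vim, whose product vimentin forms filaments with that of Gfap, at -0.43 (adjusted p = 0.090).

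Of 11 tested A1 genes 7 rose and 0 fell (median 0.80), with 6 to 8 rises without 1 library. With library weights 8 rose and 1 fell. Complement C3, the usual A1 marker, rose by 3.97, the proteoglycan gene Srgn by 1.80, the interferon-induced GTPase gene Gbp2 by 1.47 and Amigo2 by 0.98. Of 12 tested A2 genes 7 rose and 1 fell (median 0.94), with 5 to 7 rises without 1 library. With library weights 7 rose and 2 fell. The transglutaminase gene Tgm1 rose by 4.45, Ptgs2, the inducible cyclooxygenase, by 2.36, the pentraxin gene Ptx3 by 2.22 and the lipopolysaccharide co-receptor gene Cd14 by 1.88, and Emp1 fell by 0.71 on the log2 scale (not past the threshold without SG female 5 or SG female 6). Ptgs2 was below 0 log2 CPM in every SG library and passed the filter through YSGr libraries alone. With the stricter filter 5 of 10 tested A2 genes rose and 1 fell (median 0.52). Both sets thus held genes that rose. Several of these, C3, Cd14 and Srgn among them, are also made by macrophages.

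Of the 20 mature astrocyte genes 0 rose and 1 fell, Sox9, a transcription factor of the astrocyte lineage, at -0.52 (SE 0.10, adjusted p = 0.0055). Their median was -0.16, made up of -0.50 in females and 0.27 in males, and the count of falls was 6 without YSGr female 11 and 2 without YSGr male 8, with 1 rise without YSGr female 12 or SG male 2. Of 7 genes of Bergmann glia, the radial astrocytes of the cerebellar cortex, A2m rose by 2.00 (not past the threshold without SG female 5), and Etv5 and Fabp7 fell, at -0.63 and -0.62.

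**Figure D5:**
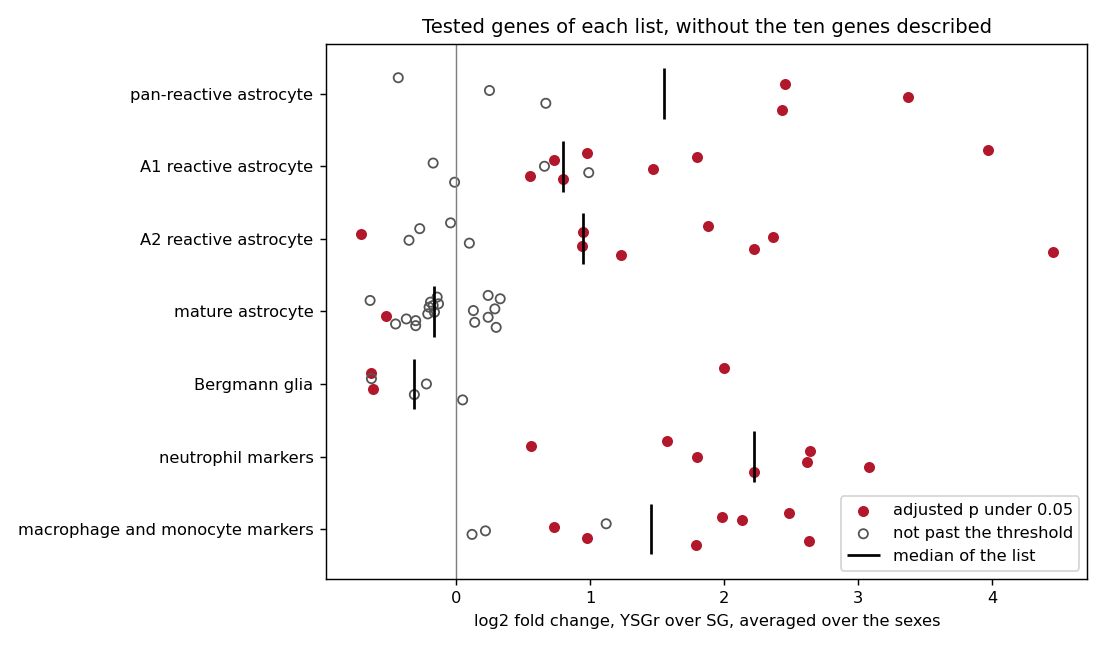
Averaged log2 fold change of YSGr over SG for the tested genes of 7 lists, the 10 members left out; filled points passed the limma threshold, open points did not, and the vertical bar is the median of the list. Medians are 1.55, 0.80 and 0.94 for the pan-reactive, A1 and A2 lists, -0.16 for mature astrocyte genes, 2.22 for neutrophil and 1.45 for macrophage markers. Ptgs2, Ccr2, Arg1, Chil3 and all neutrophil markers but Csf3r passed the filter through YSGr libraries alone and could hardly be called lower.

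Among signals that induce reactivity, 4 of 9 tested ligand genes rose and 0 fell (median 0.63): Il1b by 2.95, Clcf1, a cytokine of the interleukin 6 family, by 1.23, and C1qc and C1qb by 0.57 and 0.56. The count was 1 without YSGr female 10 and 2 without YSGr male 7, SG male 1 or any 1 SG female. Il1b (143 reads summed over YSGr, 8 over SG) and Tnf were below 0 log2 CPM in every SG library. They passed the filter through YSGr libraries alone and could hardly be called lower. With the stricter filter 2 of 5 tested ligand genes rose. Of 13 genes of their receptors and the STAT3 arm 3 rose and 0 fell (median 0.20), the interleukin 1 receptor Il1r1 by 0.98, the tumour necrosis factor receptor Tnfrsf1b by 0.78 and Il6ra by 0.63. The count was 2 without any 1 library other than YSGr female 12, without which it was 4, and the call lost was that of Il6ra (adjusted p = 0.04 with all libraries).

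Genes around single members mostly did not pass. Of 12 tested iron genes, the group of Lcn2 and Steap4, 3 rose and 1 fell (median 0.34): besides Cp, the transferrin gene Trf rose by 2.43 and the ferritin heavy chain gene Fth1 by 0.72. Of the other Steap genes Steap3 fell, at -0.65 (not past the threshold without SG female 5 or SG female 6), Steap2 was at 0.37 (adjusted p = 0.29) and Steap1 did not pass the filter. The count of iron genes that fell was 2 without YSGr female 12 or SG male 2. Trf and Fth1 are abundant in oligodendrocytes. Of 8 tested genes of sphingosine-1-phosphate signalling S1pr5 rose by 1.04, a call that remained without YSGr male 7, YSGr female 12, SG male 2 or SG female 4 and was lost without any 1 of the other 8 libraries. S1pr1 and S1pr2 were at -0.04 and -0.21 (adjusted p = 0.91 and 0.37), and S1pr4 did not pass the filter.

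Of 8 hyaluronan and Cd44 ligand genes Spp1, which encodes the Cd44 ligand osteopontin and is also a macrophage product, rose by 2.49 (SE 0.28, adjusted p = 0.00018) and 0 fell, or 1 without YSGr female 12 or SG male 2. Of 9 partners of Aqp4 and other water channel genes 0 rose and 0 fell by limma (median -0.17), or 1 fell without SG male 2, and 4 fell with library weights. Of 9 folate enzyme genes, the family of Aldh1l1, Shmt1 and Shmt2 fell, at -0.51 and -0.41, with 0 called without YSGr male 8, YSGr female 10 or any 1 SG female, 1 without YSGr female 11, SG male 1 or SG male 2, and 4 without YSGr female 12. The filament gene Nes fell by 0.41 on the log2 scale, a call kept only without YSGr male 7, YSGr female 12 or SG male 1.

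The genes whose levels followed Lcn2 and Gfap most closely were found by the root mean square log2 difference over the 12 libraries, each gene set to its SG mean. For Lcn2 they were Tgm1 (1.15), C3 (1.54), Cd74 (1.65), Duxbl1 (1.65) and Shisa3 (1.77), and for Gfap Siglec1 (0.26), Sdc4 (0.27), Ptpn22 (0.28), Trim62 (0.28) and Cap2 (0.30). The likeness includes the difference between the genotypes, which is larger for Lcn2.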

How the data were processed

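Bulk RNA-seq of 12 tumour libraries was analysed from a table of log2 CPM values that the authors deposited. Per the submitters' processing notes, Trimmomatic 0.33, RSEM 1.2.12, Bowtie2, Picard 1.95, edgeR 3.30.3 and mm10 were named as tools and build, with their roles, the annotation and strand use not given in the sources used here. On the linear scale, values lay on steps of 1 read for 92.0 to 93.1% of genes (within 0.02 reads, prior count 2), which gave the estimated reads. One read was worth 0.100 to 0.111 CPM, and counting intervals cover counting error only.

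Genes above 0 log2 CPM in 3 or more of the 12 libraries were fitted with limma 3.58.1 (R 4.3.3, statmod 1.5.0), 1 coefficient per genotype and sex, eBayes with a trend, two-sided, Benjamini-Hochberg over 14147 genes, threshold 0.05. The script was tested on simulated data. The members and gene lists were chosen with earlier results of these data known. Named are all members and, per list, up to 4 called genes by size of the averaged change, all pan-reactive, Serpina3, S1P receptor and Steap genes, and the 5 genes most like Lcn2 or Gfap. Genes named outside this are neutrophil and other cell type markers chosen after their values were seen. Alternatives were the filter, log2(CPM + 1), quantile normalization, library weights, eBayes without a trend, an additive model, each library left out and the astrocyte scale. Coordinates are from GENCODE M21 (mm10).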

Additional observations from a re-analysis of the deposited data

Results flagged for a closer look

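Libraries that stood apart from the other 5 of their genotype by Dixon's test at the 95% level were found in 3 of 20 combinations of member and genotype, where chance flags about 1 in 20. All 3 were SG males, each another library. Lcn2 was lowest in SG male 3, at -2.24 log2 CPM (0 reads), against -0.21 in the nearest SG library. Gfap was highest in SG male 1, at 8.66 log2 CPM, against 8.04 in the nearest. Aldh1l1 was highest in SG male 2, at 5.97 log2 CPM, against 5.48 in the nearest.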

How the results depend on the processing

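All 10 averaged YSGr against SG differences moved by less than the SD between libraries under every alternative run. That is a wide limit: Lcn2 ran from 4.78 to 6.17, against 5.67 in the main fit. The changed filters, eBayes without a trend and the additive model could not move these differences, so they say nothing on this. Aspg changed sign, to 0.01 both without YSGr female 12 and with library weights. Library weights raised the counts of called genes from 1617 to 4986 for YSGr against SG, from 1 to 675 for the sex difference of that effect, from 11 to 1819 for YSGr females against males and from 5 to 28 for SG females against males. Leaving out 1 library gave 903 to 2087, 1 to 115, 9 to 1029 and 5 genes. With weights Steap4, S1pr3 and Cd44 passed for the sex difference (adjusted p 0.013, 0.018 and 0.034), Steap4, Gfap, S1pr3, Aspg and Aldh1l1 for YSGr females against males (0.033, 0.047, 0.016, 0.026 and 0.031) and Steap4 for SG females against males (0.012). Signs turned for Lcn2 in YSGr females against males with weights (0.14). In SG females against males they turned for Lcn2 without SG male 3 (-0.41, range without 1 library -0.41 to 1.21), Gfap without SG male 1 (-0.40 to 0.03), Aqp4 with weights (-0.29) or without SG male 2 (-0.28 to 0.43), and Aspg with quantile normalization (0.00), weights (0.04) or without SG male 1, SG male 2, SG female 5 or SG female 6 (-0.17 to 0.09). Relative to the mature astrocyte genes, signs turned for the sex difference of Gfap (0.24), Aqp4 (0.13) and Aldh1l1 (0.38), for YSGr females against males of Lcn2 (0.34), Gfap (0.17), Cd44 (0.43), Ggta1 (0.33), Aqp4 (0.40) and Aldh1l1 (0.27), for SG females against males of Aspg (0.14), for YSGr against SG females of S1pr3 (0.44), Cd44 (0.32) and Aldh1l1 (0.14), and for YSGr against SG males of Aldh1l1 (-0.25). Elsewhere the small effects of S1pr3 in females (-0.20 to 0.23 without 1 library), Aqp4 in males (-0.49 to 0.23) and Aldh1l1 in males (-0.12 to 0.21) changed sign, S1pr3 also with library weights and Aqp4 also with quantile normalization. The astrocyte scale shifts all genes of a library alike, and turned signs on it were not counted over all genes. The causes were not tested. With weights, mature astrocyte genes had 3 risen and 10 fallen in place of 0 and 1. No paired analysis was possible because the library numbers are not shared between groups. Depth limits Steap4 and Lcn2 in SG, at 0 to 30 reads per library.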
